A study of Mus musculus with 24 samples.

Results

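Oxidative phosphorylation makes ATP in the inner mitochondrial membrane. Complex I (NADH dehydrogenase, Nduf genes) and complex II (succinate dehydrogenase, Sdh genes) pass electrons to ubiquinone, complex III (cytochrome bc1, Uqcr genes) passes them to cytochrome c, complex IV (cytochrome c oxidase, Cox genes) reduces oxygen, and complex V (ATP synthase, Atp5 genes) uses the proton gradient that complexes I, III and IV build. Most subunits are encoded in the nucleus and are made in every cell with mitochondria, at high levels in muscle. Complex IV has tissue isoforms: Cox6a2, Cox7a1 and Cox8b are the forms of heart and skeletal muscle, and Cox6a1, Cox7a2 and Cox8a are their ubiquitous counterparts. The mouse oesophagus carries a coat of skeletal muscle, so a piece of whole oesophagus holds both a squamous epithelium and muscle fibres.

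The subunit genes were taken from the array by name: every non-control probe whose gene name begins with Nduf followed by a, b, c, s or v and a digit, with Sdha to Sdhd, with Uqcr, with Cox and a digit from 4 to 8, or with Atp5, and that is not an assembly factor. The rule found 118 of 41174 probes and 84 of 28104 genes, of which 36 belong to complex I, 4 to complex II, 8 to complex III, 19 to complex IV and 17 to complex V. The names also caught 4 genes that are not subunits, namely Cox4nb (a subunit of the endoplasmic reticulum membrane complex), Cox7a2l (a supercomplex assembly factor), Atp5s and Atp5sl (named for their likeness to a coupling factor of the synthase), so 80 genes were subunits. Ndufa4 was counted with complex I by its name, although it is now assigned to complex IV. Where a gene had more than 1 probe, the brightest stood for it. A test required that probe to be well above background throughout at least 1 group of arrays, which held for 82 of the 84 genes and for 20516 genes in all. Cox7b2 and Cox8c, isoforms known from testis, were not tested. Cox4i2, the lung isoform of subunit 4, was above background on all 3 arrays of a group only in Nrf2-null mice with mixed reflux, and 81 of the 82 tested members were above background on all 24 arrays.

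RNA came from the dissected oesophagus of C57BL/6J mice labelled male and aged 12 weeks, either wild type or homozygous for a deletion of Nrf2 (Nfe2l2, the transcription factor of the antioxidant response). Each genotype was studied without reflux and with gastric, duodenal or mixed reflux lasting 4 weeks, with 3 arrays in each of the 8 groups. Sample RNA was labelled with Cy5 and hybridised against a Cy3-labelled reference RNA pooled from 11 mouse cell lines, so each value below is a log2 ratio of sample over that reference, and ratios of different probes are not levels that can be set against each other. The labels name the tissue as whole oesophagus for 7 groups and as oesophageal epithelium for the Nrf2-null mixed group, while the sample sources are called epithelium throughout. In a bulk sample, fewer cells of a type and less RNA per cell cannot be told apart.

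Several arrays limit what follows. Nfe2l2 read -3.81 to -2.83 on the Nrf2-null arrays and 1.45 to 2.18 on the wild-type arrays with a value, so the genotypes were separated. The 3 Nrf2-null mixed arrays correlated at 0.996 to 0.997 and were averaged and counted as 1 sample, leaving 22 samples. The 3 wild-type duodenal arrays correlated at 0.986 to 0.991 and were kept as 3 samples. Their skeletal muscle scores, defined below, had a standard deviation of 0.0013, against 0.25 to 2.44 in the other groups of 3 samples. Whether they are separate RNA samples was not tested, and no alternative counted them as 1, which limits the calls that use them. Wild-type arrays 1 and 2 without reflux, scanned on another day than all others, had outlier flags on 61 and 54 of the 82 members, so that 48 members rest on 1 array in that group and 15 on all 3. Nrf2-null gastric array 1 and Nrf2-null duodenal array 2 had a median Cy5 intensity of 88.2 and 85.3, against 138 to 245 on the other arrays of their scan day, and correlated at 0.754 to 0.788 and at 0.894 with the other arrays of their groups. They are called the 2 arrays of low Cy5 signal, although wild-type arrays 1 and 2 without reflux, on their own scan day, had 103 and 81.8. Nrf2-null gastric array 2, labelled male, read -1.78 for Xist, where the other arrays read -7.20 to -4.67. Wild-type and Nrf2-null gastric arrays were scanned on different days.

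The sequences upstream of the isoform pairs are shown because the muscle and ubiquitous forms took different courses in these samples. No window was available for Cox6a2, so Cox6a1 is shown without its muscle counterpart. The windows hold the 150 bases before the transcription start in RefSeq's annotation of GRCm38.p6, written 5' to 3' on the strand of the gene. Capitals mark matches, on either strand, to the site of nuclear respiratory factor 1 (NRF1, which is not Nrf2; GCGC, any base, then TGCGC), to the GABP core (CCGGAAG), to an E-box (CANNTG, the core bound by muscle regulators among others), to a TATA box (TATAAA) and to the antioxidant response element core (TGACNNNGC).
Cox7a1 (muscle form), chr7:30184021-30184170, plus strand: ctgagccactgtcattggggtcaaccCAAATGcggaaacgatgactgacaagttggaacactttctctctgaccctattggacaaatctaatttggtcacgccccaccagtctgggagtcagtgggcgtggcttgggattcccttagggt
Cox7a2 (ubiquitous form), chr9:79759854-79760003, minus strand: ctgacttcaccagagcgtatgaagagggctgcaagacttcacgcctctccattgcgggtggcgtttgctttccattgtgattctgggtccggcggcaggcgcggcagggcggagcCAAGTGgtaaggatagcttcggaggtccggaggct
Cox8b (muscle form), chr7:140900447-140900596, minus strand: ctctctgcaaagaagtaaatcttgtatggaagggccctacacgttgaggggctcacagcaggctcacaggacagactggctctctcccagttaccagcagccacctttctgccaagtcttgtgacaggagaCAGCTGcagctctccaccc
Cox8a (ubiquitous form), chr19:7217617-7217766, minus strand: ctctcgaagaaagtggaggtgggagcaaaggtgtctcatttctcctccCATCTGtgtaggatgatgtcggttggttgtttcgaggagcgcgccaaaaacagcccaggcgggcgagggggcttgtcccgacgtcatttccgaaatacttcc
Cox6a1 (ubiquitous form), chr5:115348959-115349108, minus strand: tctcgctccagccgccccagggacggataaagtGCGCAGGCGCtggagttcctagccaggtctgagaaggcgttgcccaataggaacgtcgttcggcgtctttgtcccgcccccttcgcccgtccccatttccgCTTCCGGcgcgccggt

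No 2 matches overlapped in these windows. The Cox6a1 window held an NRF1 match 117 to 108 bases before the start and a GABP match 16 to 10 bases before it, while the other 4 windows each held a single E-box. An E-box of these letters is common, with a match in 47.7% of the 32851 windows of that length in the table and in 27 of the 69 member genes found there (39.1%). An NRF1 match was present in 3.09% of all windows and upstream of 13 of the 69 members (18.8%): Ndufa5, Ndufa8, Ndufa11, Ndufb4, Ndufs5, Ndufs6, Sdha, Sdhd, Cox6a1, Atp5c1, Atp5g2, Atp5h and Atp5k. The GABP core was present in 5.52% of windows and in 10 members (14.5%), and the antioxidant response element core in 6.80% of windows and in 4 members (5.80%). A gene counted when any of its windows matched. Over the 75 windows of the members the shares were 38.7% for the E-box, 17.3% for NRF1, 13.3% for GABP and 6.67% for the antioxidant response element core. A match describes letters and is not evidence of binding.

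The 3 muscle isoforms of complex IV varied more between arrays than any other member, and they varied within groups. Cox6a2 read -3.14, -2.73 and -3.32 in wild-type mice without reflux, -3.83, 3.85 and 3.74 with gastric, -1.70, -1.78 and -1.72 with duodenal and -2.63, 0.88 and -2.55 with mixed reflux. In Nrf2-null mice it read -2.92, -1.58 and -1.83 without reflux, 1.81, -2.85 and -2.76 with gastric, -1.52, -0.56 and -1.51 with duodenal, and -0.90, -0.92 and -0.82 on the 3 near-identical mixed arrays. Wild-type gastric arrays 2 and 3, wild-type mixed array 2 and Nrf2-null gastric array 1 thus stood far above the other arrays of their own groups. The range of the wild-type gastric group covered every other array.

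Cox7a1 followed the same arrays. It read -1.46, 4.32 and 4.27 in the wild-type gastric group, -0.48, 1.89 and -0.41 in the wild-type mixed group and 3.13, -0.06 and -0.56 in the Nrf2-null gastric group, and lay between -0.97 and 0.59 on every array of the other 5 groups. Cox8b read 0.69, 6.05 and 6.09, then 3.06, 5.47 and 2.70, then 7.39, 2.72 and 3.06 in those same 3 groups. Elsewhere Cox8b ran from 1.58 to 2.33 in wild-type mice without reflux, from 2.40 to 3.83 in Nrf2-null mice without reflux, and from 4.24 to 5.46 in the wild-type duodenal and in the Nrf2-null duodenal and mixed groups. The probes lie on chromosome 7 in mm9, at 135349160 to 135349219 for Cox6a2, 30970337 to 30970948 for Cox7a1 and 148084852 to 148084911 for Cox8b.

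The ubiquitous counterparts stayed within a narrow band on all arrays. Cox6a1 ran from -0.09 to 0.73 over the 23 arrays that measured it, Cox7a2 from -0.64 to 0.49 over 22 and Cox8a from -0.41 to 0.44 over 23. On wild-type gastric arrays 2 and 3, where the muscle forms peaked, Cox6a1 read -0.06 and 0.15 against 0.46 on array 1, and Cox8a -0.41 and -0.19 against 0.02.

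Other isoform sets of complexes IV and V showed nothing of the range of the muscle forms. Cox4i1, the common form of subunit 4, ran from -1.01 to -0.28 over 22 arrays, and Cox4i2, which was near background on most arrays, from -0.14 to 0.49. Cox6b1 ran from -0.07 to 0.77 and its testis counterpart Cox6b2 from 0.73 to 2.35. The genes Atp5g1, Atp5g2 and Atp5g3 encode the same mature c subunit of the synthase with different import sequences. Atp5g1 spanned -1.23 to 0.73 and Atp5g3 -0.52 to 1.11, both highest on wild-type gastric arrays 2 and 3, while Atp5g2 stayed between -0.83 and -0.17.

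**Figure D1:**
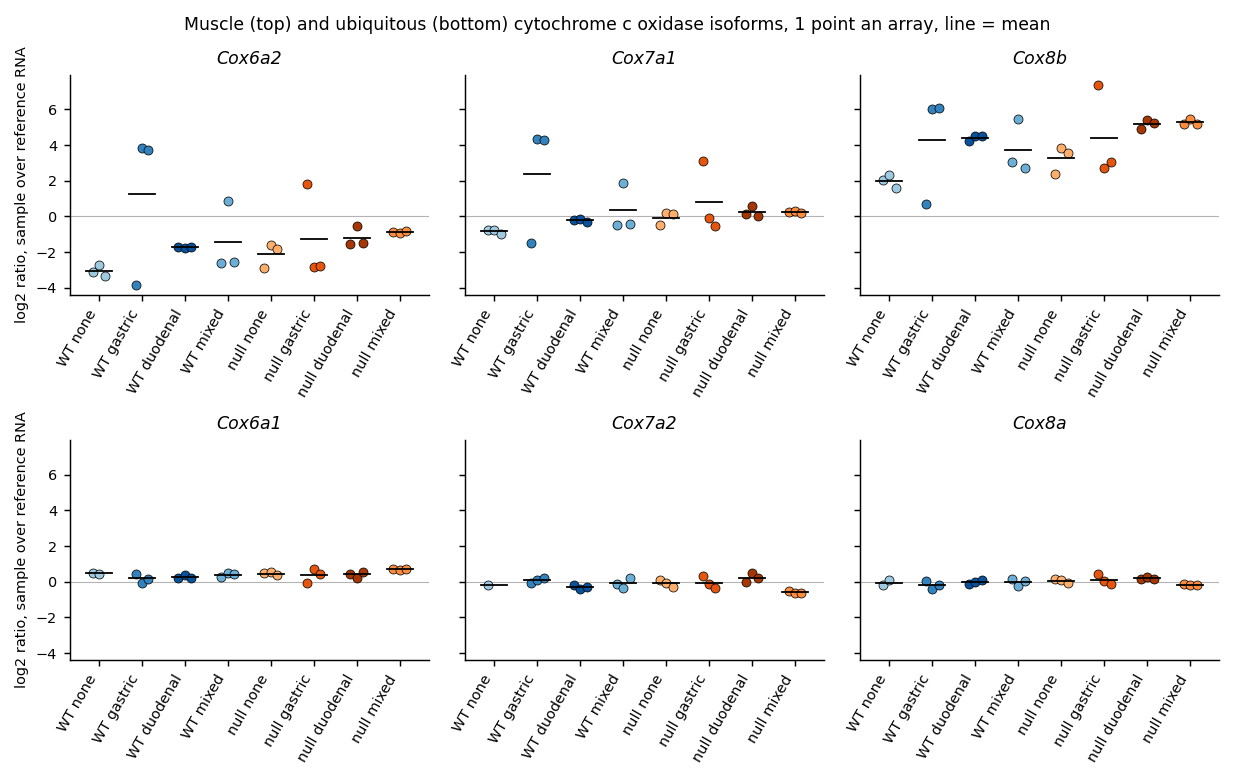
Log2 ratio over the reference RNA (y axis) of the 3 muscle isoforms (top row) and the 3 ubiquitous isoforms (bottom row) of cytochrome c oxidase in the 8 groups (x axis; null, Nrf2-null), with 1 point an array and a line at the mean of a group's measured arrays; the 3 Nrf2-null mixed arrays count as 1 sample. Cox6a2 spans -3.83 to 3.85 within the wild-type gastric group alone, whereas Cox6a1 spans -0.09 to 0.73 over all groups.

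Skeletal muscle content was summarised by a score, the sample effect of an additive fit to 35 sarcomere genes that include no subunit gene (log2 scale, mean 0 over the arrays). The score was -1.76, -1.06 and -1.58 in wild-type mice without reflux, -1.99, 2.25 and 2.22 with gastric, 0.10 on each array with duodenal, and -0.83, 1.33 and -0.96 with mixed reflux. In Nrf2-null mice it was -0.92, 0.04 and -0.08 without reflux, 1.96, -1.04 and -0.92 with gastric, 0.14, 0.62 and 0.23 with duodenal, and 0.64 to 0.71 on the mixed arrays, those labelled as epithelium. Adipocyte genes were highest on the same 4 arrays as the muscle isoforms. The score of the 5 of 7 brown and white adipocyte markers tested was 0.95 and 0.82 on wild-type gastric arrays 2 and 3, 2.17 on wild-type mixed array 2 and 1.84 on Nrf2-null gastric array 1, and at most 0.29 on every other array, while Adipoq and Lep were not well enough above background to be tested. Of these 5 markers 1 had a positive slope on the skeletal muscle score that passed the test described below, and the median slope over the 5 was 0.26. The part of these markers in the member values was not tested. Smooth muscle genes ordered the arrays in the same way in part. Their score was 0.72, 1.20 and 1.09 on the 3 wild-type gastric arrays and -0.20, 0.57 and -0.20 on the wild-type mixed arrays. In both groups array 2 was highest, as for skeletal muscle. In the Nrf2-null gastric group it was 0.41, -0.01 and 0.83, with array 3 highest, where the skeletal muscle score was highest on array 1. On the Nrf2-null mixed arrays the smooth muscle score was -1.05 to -1.0.

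The slope of each gene on this score, within groups, was estimated in 1 model with the 8 group means. Of the 82 members, 15 had a slope that differed from 0 (adjusted p under 0.05; limma's moderated test with Benjamini-Hochberg adjustment over all genes), and all 15 slopes were positive. Over all genes tested 8.85% passed, 6.18% with a positive slope. The median slope was 0.09 over the members and -0.00 over all genes. The muscle isoforms had slopes of 1.68 ± 0.05 (SE) for Cox6a2 (adjusted p = 8.57e-13), 1.32 ± 0.05 for Cox8b (1.9e-11) and 1.23 ± 0.06 for Cox7a1 (2.9e-10), against a median of 1.04 for the sarcomere genes themselves. The other 79 members had slopes from -0.11 (Cox6a1) to 0.24 (Ndufa5). Cox4nb (-0.05), Ndufa10 and Sdha (both -0.04) were also among the lowest.

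Accounting for the score removed most of the spread of the muscle isoforms and, in the median, little of that of the other members. The standard deviation within groups fell from 2.12 to 0.24 for Cox6a2, from 1.67 to 0.25 for Cox8b and from 1.56 to 0.30 for Cox7a1. Over the other 79 members the median standard deviation was 0.28 before and 0.23 after, and the median ratio of after to before was 0.92, against 0.99 over all genes. Single members ran from 0.42 (Ndufs7) to 1.04 (Ndufs6). The medians by complex ran from 0.78 in complex III to 0.99 in complex II.

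Apart from the muscle isoforms, 12 members had a positive slope that passed. Complex I held 9 of its 36 members among them: Ndufa5 (0.24 ± 0.05, adjusted p = 0.0026), Ndufb7 (0.24 ± 0.06), Ndufa13 (0.23 ± 0.04), Ndufs7 (0.22 ± 0.03, adjusted p = 0.000617), Ndufb10, Ndufa2, Ndufs3, Ndufv1 and Ndufa3. Ndufs7 and Ndufv1 carry an iron-sulfur cluster and the flavin of complex I, and Ndufa13 and Ndufb10 are accessory subunits. Complex III held 1 of 8 (Uqcr11), complex IV 1 of the remaining 14 (Cox5b) and complex V 1 of 17 (Atp5e, the epsilon subunit). None of the 4 complex II members passed, with slopes from -0.04 to 0.11. At an unadjusted p under 0.05, 31 members had a positive slope and 1 a negative one.

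These 12 slopes rested on few arrays. Without wild-type gastric array 1 no member other than the muscle isoforms passed, and the median slope over those 79 was -0.00, against 0.09 with it. Of all genes 4.83% passed in that fit. Without both gastric groups again only the 3 muscle isoforms passed, with slopes of 1.49, 1.16 and 0.94 for Cox6a2, Cox8b and Cox7a1, and 1.97% of all genes passed. Without the 2 arrays of low Cy5 signal, a choice made after the data were seen, 45 of the 82 members passed, all with a positive slope, where 8% of all genes had one that passed. The members then numbered 21 of 36 in complex I, all 4 in complex II, 2 of 8 in complex III, 4 of 14 in complex IV besides the muscle isoforms and 11 of 17 in complex V.

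**Figure D2:**
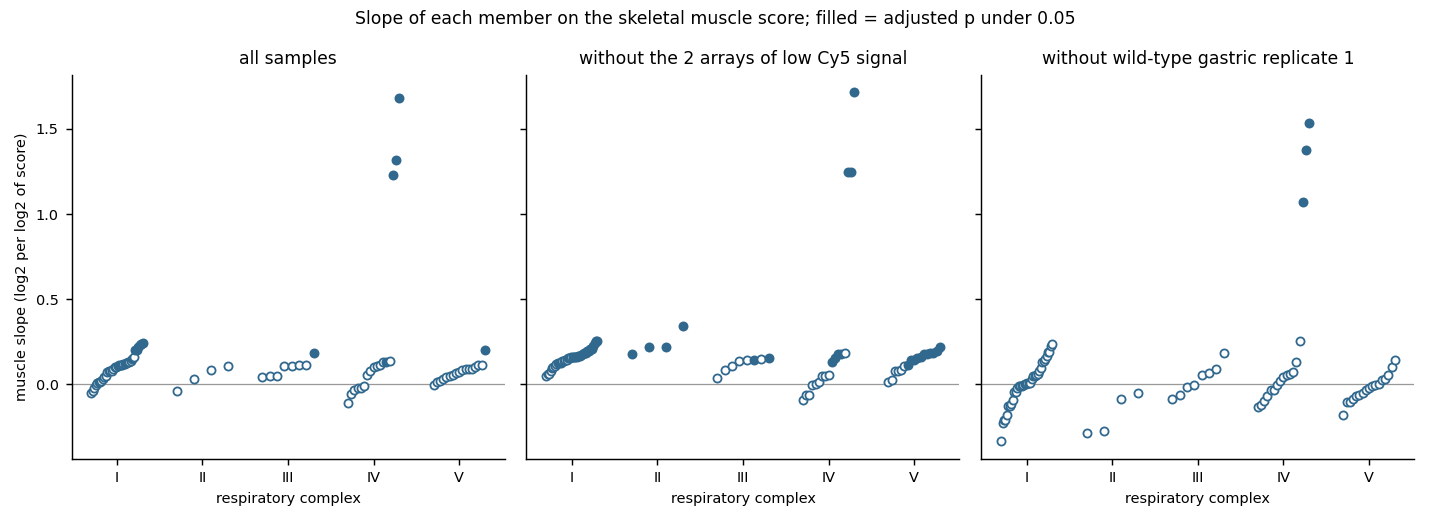
Slope of each of the 82 members on the skeletal muscle score (y axis, log2 per log2 unit of score) by complex (x axis), sorted within a complex, for all samples, without the 2 arrays of low Cy5 signal and without wild-type gastric array 1; filled points passed at an adjusted p under 0.05. The 3 points at 1.07 or above in complex IV of each panel are Cox6a2, Cox8b and Cox7a1; 15, 45 and 3 members passed in the 3 panels.

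The arrays behind this could be read directly. In the wild-type gastric group, 73 of the 79 members other than the muscle isoforms were lowest on array 1 (92.4%, against 29.5% of all genes), and the median member lay 0.70 below the mean of arrays 2 and 3 there, against 0.11 above it for the median gene. Ndufs7 read -0.96 on array 1 and 0.13 and 0.20 on arrays 2 and 3, and Sdhb, the iron-sulfur subunit of complex II, read -0.50, 0.86 and 0.53. In the wild-type mixed group, where array 2 held the muscle, 49 of the 79 members were highest on that array (62.0%, against 37.9% of all genes). Over all 79 the median gap to the mean of the other arrays was 0.17, and over all genes 0.0047.

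The Nrf2-null gastric group did not share this order. Its array 1 had a muscle score of 1.96, yet 29 of 78 members were highest there and 38 lowest, and the median member lay 0.07 below the mean of arrays 2 and 3. That array is also 1 of the 2 of low Cy5 signal, and the complexes parted on both of those arrays. Sdhb read -2.38 on Nrf2-null gastric array 1 and -3.22 on Nrf2-null duodenal array 2, and Sdha, the flavoprotein subunit, -1.82 and -1.89, whereas no other array read below -1.42 for Sdhb or -0.79 for Sdha. Ndufb7 went the other way on the same arrays, at 1.46 and 1.36 against -0.09 to 0.96 elsewhere. Both arrays also had an Atp5a1 (alpha subunit of the synthase) below all others, at -0.95 and -1.40. The part of the low Cy5 signal in these readings was not tested.

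**Figure D3:**
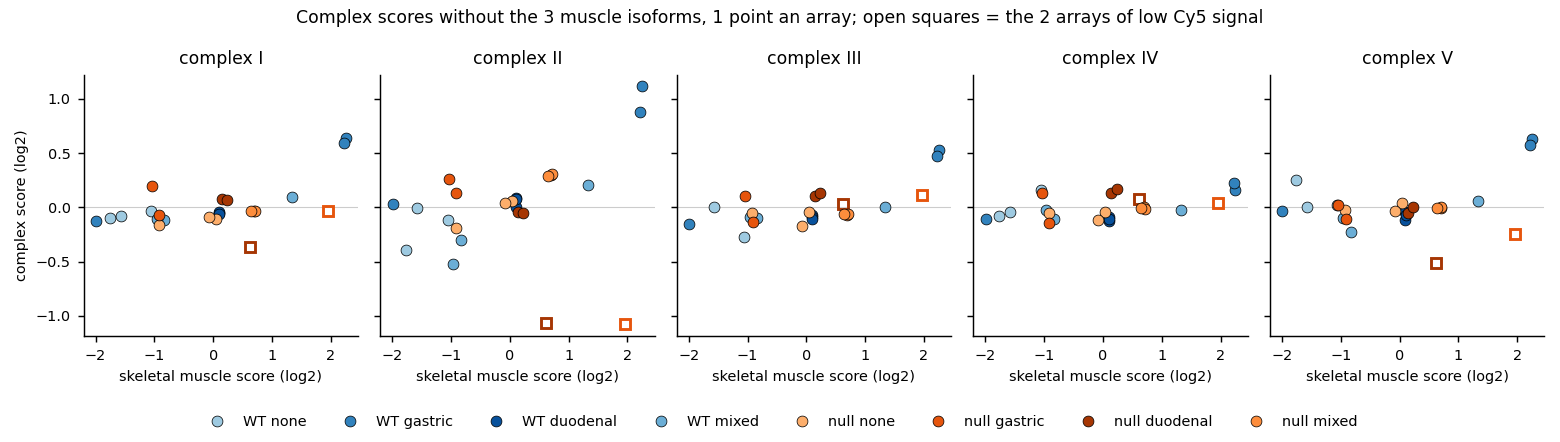
Score of each complex without the 3 muscle isoforms (y axis, log2, sample effect of an additive fit to its members) against the skeletal muscle score (x axis, log2), with 1 point an array coloured by group; open squares are the 2 arrays of low Cy5 signal, and wild-type array 1 without reflux had no complex III value. The scores of complexes I, II, III and V on the 2 wild-type gastric arrays of high muscle score lie above those of all other arrays, and the open squares lie lowest in complexes II and V.

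The study compared Nrf2-null with wild-type mice within each condition. Without reflux, no member differed (0 of 82, 0.171% of all genes called), with 1 member higher and 1 lower at an unadjusted p under 0.05 and a median difference of -0.01 over the members and 0.03 over all genes. The member with the smallest p was Ndufa4, 0.76 ± 0.23 (SE) higher in Nrf2-null mice (adjusted p = 0.367). With duodenal reflux again 0 of 82 differed, where 1.89% of all genes did, and 9 had an unadjusted p under 0.05. With mixed reflux it was 0 of 82 against 3.46% of all genes, and 3 at an unadjusted p under 0.05. Members therefore gave no call in these 3 conditions, and the medians of 0.07 and 0.04 lay beside 0.05 and 0.01 over all genes. After the muscle score 1 member was lower without reflux, Cox6a2 (-0.97 ± 0.21, adjusted p = 0.0391; 0.375% of all genes were lower). That call held in 14 of 32 alternatives, was lost among others with the cytosolic muscle score (-0.87, adjusted p = 0.17) and with scan day in the model (-0.84, adjusted p = 0.531), and turned to 0.21 with a linear score. None passed with duodenal or mixed reflux (2.95% and 4.51%), where 16 and 7 had an unadjusted p under 0.05.

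With gastric reflux 12 members were lower and 1 was higher in Nrf2-null mice, where 7.17% of all genes were lower and 10.5% higher. The median difference was -0.36 over the members and 0.11 over all genes, and 65 of the 82 differences were negative. By complex the medians were -0.34 in complex I, -0.89 in II, -0.29 in III, -0.02 in IV and -0.43 in V. Complex V gave 5 of the calls (Atp5g3, Atp5c1, Atp5e, Atp5a1 and Atp5b), complex IV 3 lower (Cox7c, Cox5a, Cox6c) and 1 higher (Cox6b2), complex I 2 (Ndufa1, Ndufs1), complex II 1 (Sdhc) and complex III 1 (Uqcrfs1).

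Uqcrfs1, the Rieske iron-sulfur protein of complex III, read 0.41, 1.20 and 0.96 in wild-type and -0.65, 0.08 and -0.19 in Nrf2-null mice with gastric reflux. The groups did not overlap, and the difference was -1.11 ± 0.21 (adjusted p = 0.00497). A lack of overlap, here and below, is read from the arrays that gave the call and is not separate support. Atp5g3, which encodes a copy of the proton-carrying c subunit, read 0.20, 1.11 and 1.05 against -0.52, -0.10 and -0.10, a difference of -1.03 ± 0.22 (adjusted p = 0.00787). Ndufa1, a small membrane subunit of complex I, read 0.26, 1.18 and 1.11 against -0.07, -0.13 and -0.34, a difference of -1.03 ± 0.22 (adjusted p = 0.00861).

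In each of these 3 genes wild-type array 1 was the lowest wild-type value and lay closest to the Nrf2-null values. Cox5a, which with Cox4i1 clasps the core of complex IV, read 0.36, 1.24 and 1.17 against -0.25, 0.29 and 0.23, without overlap, a difference of -0.83 ± 0.21 (adjusted p = 0.0164). Ndufs1, the largest iron-sulfur subunit of complex I, read 0.05, 1.02 and 0.81 against -0.15, 0.08 and -0.08, so that the groups overlapped, and differed by -0.68 ± 0.18 (adjusted p = 0.0202). Cox6b2, an isoform known from testis, was the member that was higher, at 0.88, 0.73 and 0.93 in wild-type against 2.35, 1.40 and 1.00 in Nrf2-null mice (0.74 ± 0.24, adjusted p = 0.0449), without overlap and with its highest value on the array of low Cy5 signal.

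Other probes bore on these calls. Both other Atp5b probes (the catalytic beta subunit) and the other Ndufa1 probe differed in the same direction (-1.31, -0.88 and -0.80), but the other Atp5a1 probe showed 0.03 where the brightest showed -0.76 ± 0.25 (adjusted p = 0.0469). Sdhc, a membrane anchor of complex II, read -0.24, 0.61 and 0.57 against -0.75, -0.39 and -0.28, without overlap (-0.79 ± 0.21, adjusted p = 0.0224). The remaining core subunits did not pass: the differences were -0.99 ± 0.47 for Sdha, -1.30 ± 0.60 for Sdhb, -0.48 ± 0.18 for Ndufv1, -0.48 ± 0.25 for Ndufs7, 0.37 ± 0.17 for Uqcrc1 and 0.03 ± 0.21 for Cox4i1 (adjusted p from 0.0706 to 0.942).

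After accounting for the muscle score, 11 members were lower and 3 higher with gastric reflux (8.88% and 10.9% of all genes), and the median difference was -0.31. Uqcrfs1 differed by -1.07 ± 0.21 (adjusted p = 0.00511), Atp5g3 by -0.95 ± 0.21 and Ndufa1 by -0.92 ± 0.19, each close to its value before. Atp5a1 and Atp5b no longer passed, with differences of -0.75 ± 0.26 (adjusted p = 0.0551) and -0.53 ± 0.19 (adjusted p = 0.0619) against -0.76 and -0.60 before. Cox6a2 changed from -2.52 ± 1.58 (adjusted p = 0.265) to -1.13 ± 0.20 (adjusted p = 0.00211) and Cox8b from 0.12 ± 1.24 (adjusted p = 0.956) to 1.21 ± 0.21 (adjusted p = 0.00187). With the score on the linear scale the Cox6a2 difference turned to 0.044 and that of Cox8b was 2.13. Uqcrc1, a core subunit of complex III, was higher by 0.46 ± 0.13 (adjusted p = 0.0289).

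The gastric result depends on single arrays, on the scan day and on the normalisation and fit. Median centring in place of loess gave 0 calls (median difference -0.43), as did a fit to only the groups compared. The count of members called was 35 without wild-type array 1, 2 without wild-type array 2 and 3 without wild-type array 3. The share of all genes called is not given beside these counts, so they may follow a change over all genes. With the scan day as a term in the model 0 of 82 members and 4 of all genes passed before the score (median difference -0.33) and 0 after it (-0.19), and since the wild-type gastric arrays were scanned on one day and the Nrf2-null gastric arrays on another, that fit separates genotype from day only through other groups. Without the 2 arrays of low Cy5 signal the median difference was -0.32 before and -0.05 after the score. In those fits 18 and 11 members were called, and the shares of all genes are not given.

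Some markers of other cell types were also called in that comparison, where 7.17% of all genes were lower and 10.5% higher. Of 8 fibroblast markers 2 were lower (median difference -1.43) and none higher, of 9 basal keratinocyte markers 2 were higher (0.64), of 11 squamous keratinocyte markers 2 were higher (0.74), and of 8 neutrophil markers 2 were higher (0.70). On Nrf2-null gastric arrays 1, 2 and 3 the basal score was 0.77, -0.30 and -0.13 and the squamous score 0.74, 0.04 and 0.08. Both were highest on array 1, of low Cy5 signal. The limit of scan day holds here too. The part of these markers in the member differences was not tested.

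**Figure D4:**
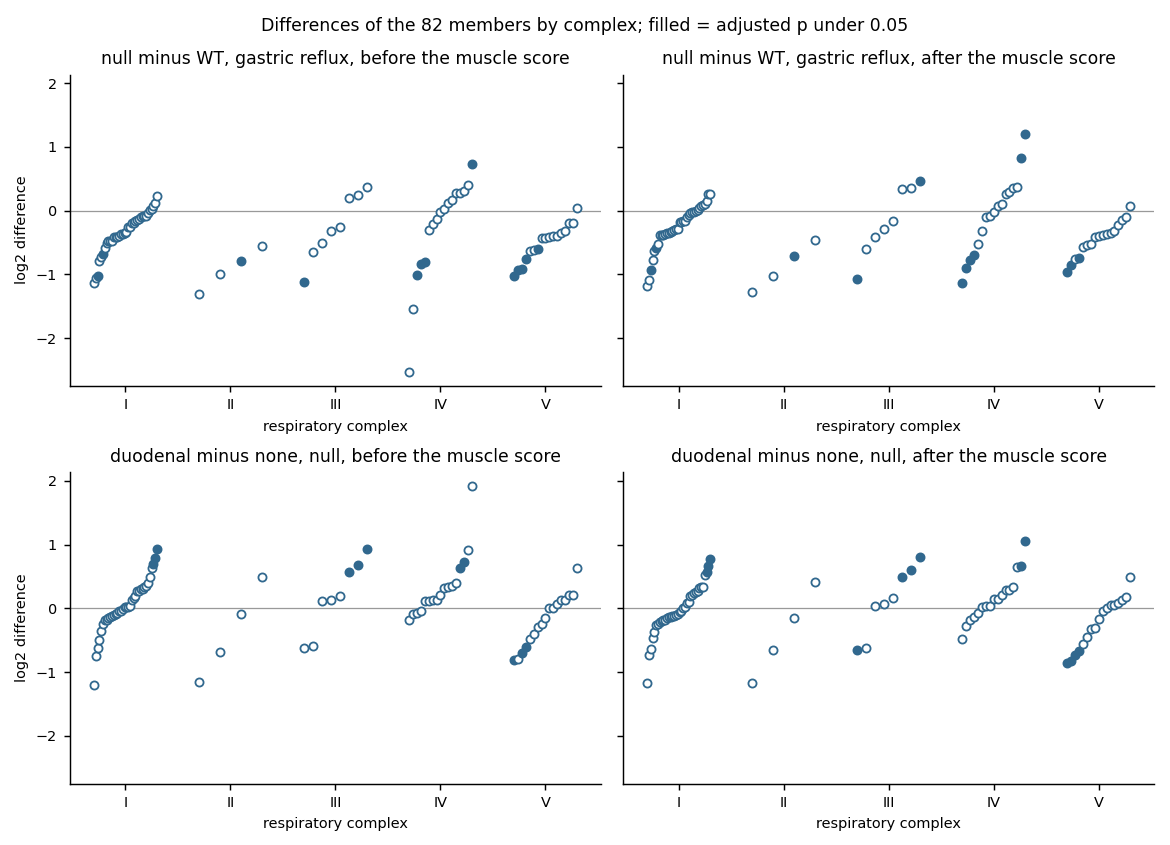
Log2 difference (y axis) of each of the 82 members by complex (x axis), sorted within a complex, before (left) and after (right) accounting for the skeletal muscle score, for Nrf2-null minus wild type with gastric reflux (top) and for duodenal reflux minus none in Nrf2-null mice (bottom); filled points passed at an adjusted p under 0.05. In the top row 13 and 14 members passed and in the bottom row 11 and 13, and the lowest open point at upper left, -2.52, is Cox6a2.

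As the mean over the 4 conditions, 1 member (Atp5s, not a subunit, -0.37 ± 0.10, adjusted p = 0.0279) differed between genotypes before the score, where 2.37% of all genes were lower. After it, 8 members were lower and 1 was higher (5.54% and 8.29% of all genes). They were Cox6a2 (-0.70 ± 0.11, adjusted p = 0.000926), Cox7a1 (-0.52 ± 0.13, adjusted p = 0.0165), Cox6c, Ndufa1, Ndufa5, Ndufs7, Ndufv1 and Atp5s, and Cox8b was higher (0.46 ± 0.12, adjusted p = 0.0157). With the scan day as a term the count was 0 both before and after. With a linear score it was 2, and the differences of Cox6a2 and Cox7a1 turned to 0.091 and 0.057. The count after the score ran from 4 (without wild-type gastric array 2 or 3, or wild-type duodenal array 1) to 13 as single arrays were left out.

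Whether the genotype difference depended on the type of reflux was tested with an F test of 3 interaction contrasts. No member passed before the score (5.08% of all genes did, and 14 members had an unadjusted p under 0.05). Without wild-type gastric array 1, 17 members passed before the score, and the share of all genes in that fit is not given. After the score 3 members passed (7.46% of all genes): Cox6a2 (adjusted p = 0.0292), Atp5e (0.0331) and Cox8b (0.0403). Atp5e differed between genotypes by -0.19 ± 0.25 without reflux, -0.75 ± 0.18 with gastric, 0.52 ± 0.17 with duodenal and -0.22 ± 0.25 with mixed reflux after the score. The 3 calls were lost, to 0, when wild-type gastric array 2 or 3, any wild-type duodenal array or Nrf2-null array 2 without reflux was left out, and there were 13 without wild-type gastric array 1.

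Reflux was also compared with no reflux within each genotype, and these comparisons share the 3 arrays without reflux of their genotype. In wild-type mice with gastric reflux 1 member was higher, against 3.06% of all genes: Ndufs1, the subunit named above, read -0.21 and -0.16 on the 2 arrays without reflux that measured it and 0.05, 1.02 and 0.81 with gastric reflux, a difference of 0.81 ± 0.20 (adjusted p = 0.0377). The median over the members was 0.39, over all genes -0.03, and 75 of 82 differences were positive. Cox6a2 differed by 4.32 ± 1.58 (adjusted p = 0.122) and Cox7a1 by 3.22 ± 1.17 (adjusted p = 0.119), with array 1 of the gastric group below and arrays 2 and 3 above all arrays without reflux for both. After the score no member passed (0.439% of all genes), 4 had an unadjusted p under 0.05, the median was 0.17, and Cox6a2 differed by 0.47 ± 0.23 (adjusted p = 0.336).

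That comparison turned on array 1: without it 23 members were called before the score, and without any other array of the 2 groups none was. The shares of all genes in those fits are not given. All 3 hepatocyte markers tested were higher (median 3.56), as was 1 of 8 fibroblast markers (1.35), where 3.06% of all genes were. Their part in the member differences was not tested.

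With duodenal reflux in wild-type mice 1 member was higher and 1 lower (7.26% and 3.05% of all genes). Ndufa4 was higher by 0.92 ± 0.23 (adjusted p = 0.0191) and Atp5s lower by 0.95 on the log2 scale (SE 0.18, adjusted p = 0.00271), and its other probe showed -0.60. After the score Cox6a2 (-1.30 ± 0.21, adjusted p = 0.00106), Cox7a1 (-1.30 ± 0.25, adjusted p = 0.00331) and Cox6c (-0.87 ± 0.21, adjusted p = 0.0142) were lower as well, giving 1 higher and 4 lower (9.06% and 4.98%). With a linear score Cox6a2 turned to 0.20 and Cox7a1 was -0.22 (adjusted p = 0.449). The wild-type arrays without reflux were scanned on days 1 and 2 and all wild-type duodenal arrays on day 3, so that reflux and scan day cannot be told apart within this comparison, and with scan day in the model, estimated through other groups, 0 members passed before and after the score. Of 8 neutrophil markers 3 were higher in this comparison (median 1.29), as were 2 of 3 hepatocyte markers (3.83), whose score was -1.99 to -1.50 without reflux and 1.21 to 1.38 with it, and their part in the member differences was not tested. With mixed reflux in wild-type mice no member passed before or after the score (0.0536% and 0.253% of all genes), with 2 and 5 members at an unadjusted p under 0.05.

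In Nrf2-null mice the gastric comparison gave no call before or after the score (0.585% and 1.39% of all genes), with 6 and 13 members at an unadjusted p under 0.05. The mixed comparison gave none either (4.77% and 6.28%), with 2 and 6. Duodenal reflux gave 8 members higher and 3 lower, where 13.5% and 6.33% of all genes were, so that neither share of the members exceeded that of all genes. The median was 0.06 over the members and 0.08 over all genes.

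The calls with duodenal reflux in Nrf2-null mice fell as follows, and differences between complexes were not tested. Complex III gave 3 calls, all higher (Uqcr11, Uqcr10 and Uqcrq, its small subunits), complex I gave 3, all higher (Ndufb7, Ndufa2 and Ndufb10), and complex IV gave Cox7b and the non-subunit Cox4nb, both higher, while the 3 calls of complex V, Atp5a1, Atp5b and the non-subunit Atp5s (-0.70 ± 0.18, adjusted p = 0.0102), were lower. Within each complex members lay on both sides of 0, with 19 of 36 differences positive in complex I, 6 of 8 in III, 13 of 17 in IV and 8 of 17 in V. Uqcr11 read 0.13, 0.02 and 0.02 without reflux and 0.86, 1.24 and 0.84 with duodenal reflux, a difference of 0.93 ± 0.24 (adjusted p = 0.0138). Ndufa2 read -0.74, -0.85 and -0.76 against 0.07, 0.00 and -0.04 (0.79 ± 0.24, adjusted p = 0.0306), and Ndufb7 0.05, -0.09 and -0.04 against 0.72, 1.36 and 0.63 (0.93 ± 0.31, adjusted p = 0.0484). For all 3 every duodenal array was above every array without reflux, on the same arrays that gave the calls, so this is not separate support.

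Atp5b read -0.26, -0.15 and -0.27 without reflux and -0.70, -1.06 and -0.75 with duodenal reflux, again without overlap (-0.61 ± 0.20, adjusted p = 0.0435), and its other probes differed by -1.33 and -0.98. Atp5a1 differed by -0.81 ± 0.25 (adjusted p = 0.0337) but by 0.07 on its other probe, and Cox4nb by 0.64 ± 0.14 (adjusted p = 0.0048) but by -0.74 on its other probe, so neither direction held across probes.

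After the score 8 members were higher and 5 lower (14.2% and 7.08% of all genes): Cox8b joined the higher ones (1.06 ± 0.21, adjusted p = 0.00217) and Cox7b left them (0.65 ± 0.22, adjusted p = 0.0518, against 0.72 before), and Uqcrfs1 (-0.65 ± 0.21, adjusted p = 0.0434) and Atp5c1 (-0.85 ± 0.28, adjusted p = 0.0422) joined the lower ones. Without the 2 arrays of low Cy5 signal 9 members were called before the score, 6 higher and 3 lower. The count before the score was 2 without Nrf2-null array 2 of either group, 3 and 5 without the other arrays without reflux and 6 without duodenal array 1. With the scan day as a term 0 members passed before and 1 after the score, and with median centring in place of loess 1 passed before it (median -0.22). Of 8 neutrophil markers 7 were higher in this comparison (median 2.72), and of 11 squamous keratinocyte markers 8 were higher and 1 lower (1.25). Of 5 cardiomyocyte markers 3 were higher (1.001), with a score of 0.71 to 1.40 against -0.81 to -0.47, and all 3 hepatocyte markers were higher (3.42), with a score of 1.96, -1.06 and 2.16 against -2.04 to -1.94. Their part in the member differences was not tested.

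Partners of the chain were read from 3 lists outside the members. Of 45 assembly factors tested, 5 were higher and 3 lower in Nrf2-null mice with gastric reflux (median 0.05), shares near the 10.5% and 7.17% of all genes, among them Cox17, the copper chaperone of complex IV (-2.84 ± 0.60, adjusted p = 0.00715), Sco1, also a copper carrier (0.86 ± 0.18, adjusted p = 0.0069), and Cox10, which makes haem O (-0.76 ± 0.18, adjusted p = 0.0117). With duodenal reflux in Nrf2-null mice 6 were higher and 1 lower, where 13.5% and 6.33% of all genes were, led by Coa3 (1.24 ± 0.25, adjusted p = 0.0031). Their median slope on the muscle score was 0.02, with 4 of 45 positive calls and 1 negative, below the members' 0.09.

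Of 11 electron carriers and transporters, 4 were lower in Nrf2-null than in wild-type mice with gastric reflux (median -0.76; 7.17% of all genes were lower, and with scan day in the model 4 of all genes passed in either direction), led by Slc25a4, the ADP/ATP carrier of muscle and heart (-2.56 ± 0.77, adjusted p = 0.0352), Slc25a3, the phosphate carrier (-1.28 ± 0.38, adjusted p = 0.0338), and Vdac2 (-0.86 ± 0.23, adjusted p = 0.0228). After the score Slc25a4 differed by -1.96 ± 0.32 (adjusted p = 0.00168). On the muscle score 4 of the 11 had a positive slope that passed, the steepest being Ckmt2, the mitochondrial creatine kinase of muscle (1.31 ± 0.11, adjusted p = 1.77e-07), and Slc25a4 (0.72 ± 0.08, adjusted p = 2.32e-05). The slope of Ckmt2 lay within the range of the muscle isoforms of complex IV, and that of Slc25a4 between theirs and those of the other members.

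Of 15 regulators of respiratory genes, Ppargc1a and Ppargc1b, coactivators of mitochondrial biogenesis, were lower in Nrf2-null mice with gastric reflux (-2.29 ± 0.59, adjusted p = 0.0161, and -1.43 ± 0.37, adjusted p = 0.0165), where 7.17% of all genes were. Both stayed lower after the score (-1.90 ± 0.40, adjusted p = 0.00542, and -1.22 ± 0.30, adjusted p = 0.0116), where 8.88% of all genes were. The limit that scan day sets on this comparison, given above for the carriers, holds here too. Ppargc1a also had a positive slope on the score (0.48 ± 0.10, adjusted p = 0.00593), as did Polrmt, the mitochondrial RNA polymerase (0.14 ± 0.03). With duodenal reflux in Nrf2-null mice Pprc1 was higher (1.13 ± 0.26) and Yy1 (-1.001 ± 0.15, adjusted p = 0.000252) and Ppara (-0.97 ± 0.21) were lower. Of all genes 13.5% were higher and 6.33% lower in that comparison.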

How the data were processed

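RNA was measured on 24 two-colour Agilent arrays, 3 in each of 8 groups. The authors deposited scanner files that hold the intensity of each channel and a log10 ratio of red over green (Agilent Feature Extraction, version 9.1 per the submitters' processing notes and later versions per the file headers), and a table of processed log2 values whose exact scale and centring are not given in the sources used here: its column medians were 0 to 0.069 and it correlated at 0.904 to 0.960 with the scanner log ratios.

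Mean and background intensities were corrected with normexp (offset 50) and normalised by loess within arrays in limma 3.58.1 (R 4.3.3). Control spots had weight 0, outlier spots were left out, and spots of a probe were averaged. The brightest probe stood for a gene. Moderated tests on all 8 groups were adjusted by Benjamini-Hochberg over all genes, threshold 0.05, each gene fitted on its measured arrays, and checked on simulated data. The labels call the arrays biological replicates but do not say that each is a separate animal; p-values measure the spread between these samples. The number of arrays limits the precision. Named were fixed core subunits of each complex, the isoform sets, in each comparison the 3 called members of largest difference in each direction and the smallest adjusted p in each complex, the 5 highest and 5 lowest slopes, and up to 3 genes per partner list; other members called are named besides, having been seen to pass. A gene among the lowest slopes is not reported here. Members and lists were chosen with earlier results of these data known. Promoter windows come from RefSeq tables (GRCm38.p6), with 69 member genes matched.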

Additional observations from a re-analysis of the deposited data

Results flagged for a closer look

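In 3 of the 82 members the genotype difference after the muscle score differed between the types of reflux, by the F test of limma's fit with Benjamini-Hochberg adjustment: Cox6a2 (adjusted p = 0.0292), Atp5e (adjusted p = 0.0331) and Cox8b (adjusted p = 0.0403). Of all genes 7.46% passed the same test, so the share of the members did not exceed that of all genes. The 3 calls were lost when any of several single arrays was left out, as given above. For Cox6a2 the differences were -0.97 ± 0.21 without reflux, -1.13 ± 0.20 with gastric, 0.15 ± 0.20 with duodenal and -0.85 ± 0.28 with mixed reflux. For Cox8b they were -0.24 ± 0.21, 1.21 ± 0.21, 0.45 ± 0.20 and 0.42 ± 0.29 in the same order. With scan day in the model, and with the score from cytosolic muscle genes, 0 members passed this F test. With a linear score the Cox6a2 differences without reflux and with gastric reflux turned to 0.21 and 0.044, and 2 members passed.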

How the results depend on the processing

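Each value is the number of the 82 members called, with genotype meaning Nrf2-null against wild type and reflux comparisons set against no reflux in the same genotype. The cause of a change was not tested unless the setting itself removes samples. Shares of all genes are not given beside the counts of this section, so a change in a count is not a result about the members alone. With the replicate number as a block, the genotype count without reflux after the score was 0; same-numbered samples did not deviate together (median r 0.02 over 63 pairs, 16 over 0.1), and the block changed no other count by over 1.5 times among the comparisons it could fit, which leave out Nrf2-null mixed reflux, the mean and the F tests. With scan day as a block the counts were 0 for genotype with gastric reflux and as the mean, for gastric and duodenal reflux in wild-type and for duodenal reflux in Nrf2-null mice, and after the score 0 for genotype without reflux, with gastric reflux and as the mean, for duodenal reflux in wild-type mice and for the F test, and 1 for duodenal reflux in Nrf2-null mice. Within scan day 3 alone genotype gave 0 with duodenal and 0 with mixed reflux. With slide as a random block (consensus correlation 0.0925) genotype gave 8 with gastric reflux and 0 as the mean, gastric reflux in wild-type mice 0 and duodenal reflux in Nrf2-null mice 7. Median centring in place of loess gave 0 and 0 for genotype with gastric reflux and as the mean, 6 and 0 for gastric and duodenal reflux in wild-type mice and 1 for duodenal reflux in Nrf2-null mice. The scanner log ratio gave 0 for gastric reflux in wild-type and 6 for duodenal reflux in Nrf2-null mice, and the values processed by the authors gave 2 and 4 for gastric and duodenal reflux in wild-type mice. Keeping outlier spots gave 2 for the genotype mean, 5 and 4 for gastric and duodenal reflux in wild-type mice, and after the score 0 for genotype without reflux and 8 for duodenal reflux in wild-type mice. Counting the Nrf2-null mixed arrays as 3 samples gave 20, 5 and 4 for genotype with gastric and mixed reflux and as the mean, 3 for gastric reflux in wild-type mice, 6 for mixed reflux in Nrf2-null mice and 10 for the F test, and after the score 1, 11 and 16 for genotype with duodenal and mixed reflux and as the mean, 1 and 9 for gastric and mixed reflux in Nrf2-null mice and 20 for the F test. No filter gave 7 for duodenal reflux in Nrf2-null mice. The mean over probes gave 1 for genotype with duodenal reflux and 2 and 1 for gastric and mixed reflux in wild-type mice, and turned Cox4nb with duodenal reflux in Nrf2-null mice to -0.054. Fitting only the groups compared gave 0 for genotype with gastric reflux and 0 and 12 for gastric and duodenal reflux in wild-type mice. A score from cytosolic muscle genes gave 0 for genotype without reflux and 0 for the F test. A linear score gave 0 and 2 for genotype without reflux and as the mean, 1 for gastric reflux in wild-type mice and 1 for mixed reflux in Nrf2-null mice, and turned the adjusted differences of Cox6a2 to 0.21 for genotype without reflux, 0.044 with gastric reflux, 0.091 as the mean and 0.20 for duodenal reflux in wild-type mice, and of Cox7a1 to 0.057 for the genotype mean. Smooth muscle as another covariate gave 5 and 8 for genotype with duodenal and mixed reflux, 9 and 2 for duodenal and mixed reflux in wild-type mice, 3, 7 and 3 for gastric, duodenal and mixed reflux in Nrf2-null mice and 20 for the F test.

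Alternatives chosen after seeing the data were these. Without the 2 arrays of low Cy5 signal the counts were 5 for the genotype mean, 5 for gastric reflux in wild-type mice, 1 for mixed reflux in Nrf2-null mice and 3 for the F test, and after the score 2, 1, 5 and 16 for genotype without reflux, with duodenal and mixed reflux and as the mean, 14 and 4 for duodenal and mixed reflux in wild-type mice, 7 and 6 for gastric and mixed reflux in Nrf2-null mice, 6 for the F test and 45 for the muscle slope, and the slope of Cox7a2 turned to -0.0064. Without both gastric groups 3 slopes passed, and those of Atp5e, Cox5b, Ndufb7, Cox6a1 and Cox7a2 turned to -0.022, -0.034, -0.0067, 0.028 and -0.14. The slope of Cox8a ran from -0.087 to 0.045 as single arrays were left out, the latter without wild-type gastric array 1.

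Leaving out each array in turn gave 0 to 0 for genotype without reflux, with duodenal and with mixed reflux, 2 to 35 with gastric reflux and 0 to 6 as the mean, 0 to 23, 1 to 2 and 0 to 0 for gastric, duodenal and mixed reflux in wild-type mice, 0 to 0, 2 to 8 and 0 to 0 in Nrf2-null mice and 0 to 17 for the F test. After the score it gave 0 to 1, 6 to 25, 0 to 5, 0 to 2 and 4 to 13 for genotype without, with gastric, duodenal and mixed reflux and as the mean, 0 to 4, 3 to 7 and 0 to 0 in wild-type and 0 to 2, 6 to 20 and 0 to 1 in Nrf2-null mice, 3 to 20 for the slope and 0 to 13 for the F test. Among single genes, 2007 values kept direction and call, 480 kept direction only, 2 gained a call and 13 reversed.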
